A study of Mus musculus with 12 samples.

Results

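Phase II conjugation enzymes make lipophilic drugs, bilirubin, steroids and bile acids water-soluble, by attaching glucuronic acid, glutathione or sulfate to them. The 46 genes described here were chosen by a rule on symbols among the 15140 genes of the liver count table. The rule itself used no measured value, but it was set with earlier results of these data known. They were 16 UDP-glucuronosyltransferases (UGT families Ugt1a, Ugt2a, Ugt2b and Ugt3a), 22 glutathione transferases (soluble GST and membrane-bound MGST) and 8 sulfotransferases (SULT). Pseudogenes were left out by the rule.

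Liver polyA RNA was sequenced in 12 male mice. Of these, 6 carried a deletion of prohibitin 1 in adipocytes (Phb1adipo-/-, labelled Phb1 KO and called KO here) and 6 were wild type (WT). Both groups ate a high-fat diet with 60 kcal% fat (D12492) for 3 months, begun at 7 to 8 weeks of age, and no group on another diet is analysed here. The deletion is in fat cells and the RNA is from liver, so the comparison asks which liver transcripts differ when adipocytes lack a mitochondrial scaffold protein. The sources used here do not give the Cre driver, the mouse strain or whether the WT mice were littermates. Replicate numbers come from the titles, nothing in the labels names the animal behind a library, and p-values therefore measure the spread between these 12 libraries.

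Total counts ran from 34121087 to 37973022 in KO libraries and from 30348123 to 40828767 in WT libraries. The summed level of 11 hepatocyte markers was 81100 to 109662 CPM (counts scaled to library size) in KO libraries and 78444 to 110392 CPM in WT libraries. Markers of acinar pancreas, a neighbouring organ, had 1 of 11 genes tested. Among WT libraries, 2 and 4 were the extremes in sex-biased liver genes, which respond to the growth hormone pattern. The summed level of 17 male-biased genes was 10625 to 20260 CPM in KO libraries and 12525, 3841, 15361, 7157, 9949 and 14050 CPM in WT libraries 1 to 6. That of 11 tested female-biased genes was 112 to 324 CPM in KO libraries and 1278, 2205, 122.6, 1498, 436 and 124 CPM in WT libraries 1 to 6. Libraries 2 and 4 were thus the lowest WT libraries for male-biased genes and the highest for female-biased genes. For female-biased genes WT library 1, at 1278 CPM, came next and was not set apart from them by a gap. No gene named below kept its call when these 2 libraries were left out together. WT library 6 was the shallowest library and had the lowest level of all 12 for 11 of the 46 genes.

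The 3 enzyme classes differ in where and on what they act. UGTs sit in the membrane of the endoplasmic reticulum and take glucuronic acid from UDP-glucuronate. Soluble GSTs join glutathione to electrophiles in the cytosol, while MGSTs do so in membranes. SULTs move sulfate from the donor PAPS to phenols, steroids and bile acids. In mouse liver many of these genes respond to the receptors CAR (Nr1i3), PXR (Nr1i2) and AhR and to the oxidative stress factor Nrf2 (Nfe2l2), and several, such as Gstp1, are more abundant in males.

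The Ugt1a genes are joined in 1 locus on chromosome 1 and need a look at their sequence before their values are read. Each Ugt1a gene begins with an exon of its own, which sets the substrate and is spliced to exons that all Ugt1a genes share. In GENCODE M21 (GRCm38) the 6 measured genes have 3 exons of identical start and end in common, the first at chr1:88215044-88215175 on the plus strand. Shared exons whose annotated start or end differs between the genes were not counted. The junction is shown for all 6 because only the part before it can tell their transcripts apart. Lower case marks the last 30 bases of the gene's own exon, capitals the first 30 bases of the shared exon.
Ugt1a1: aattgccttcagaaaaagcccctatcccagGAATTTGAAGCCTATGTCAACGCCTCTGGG
Ugt1a5: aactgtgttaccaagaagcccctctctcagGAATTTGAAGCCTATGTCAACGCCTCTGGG
Ugt1a6a: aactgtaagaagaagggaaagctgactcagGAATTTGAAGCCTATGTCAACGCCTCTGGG
Ugt1a6b: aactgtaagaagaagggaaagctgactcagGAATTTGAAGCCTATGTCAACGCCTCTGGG
Ugt1a7c: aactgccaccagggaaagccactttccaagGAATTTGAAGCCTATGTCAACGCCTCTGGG
Ugt1a9: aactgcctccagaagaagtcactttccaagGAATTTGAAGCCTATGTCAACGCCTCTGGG

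The capitals are the same in all 6 junctions, and the lower-case stretches are of 5 kinds, since Ugt1a6a and Ugt1a6b have the same 30 bases. Over their whole exons before the junction, Ugt1a6a and Ugt1a6b are 95.1% identical. Ugt1a7c and Ugt1a9 are 78.3% identical there, and every other pair is between 56.9% and 60.9%. Of all 75-base stretches in the annotated transcripts, between 51.2% (Ugt1a6a) and 74.8% (Ugt1a6b) also occur in another gene. How reads in shared exons were counted is not given in the sources used here. Ugt1a7c averaged only 0.579 CPM in KO livers and 0.725 CPM in WT livers although it holds the shared exons, so reads in them were not added to every Ugt1a gene. The values below are therefore those of the reads the authors could assign, and they are uncertain for Ugt1a6a against Ugt1a6b. They are uncertain for Ugt1a1 too, since 82.7% of its exon bases overlap exons of other genes, leaving 385 of its own.

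Promoters are shown for the 2 genes that passed the test and for Gstp1 and Gstp2, neighbours with their extremes in the same libraries. They come from RefSeq (GRCm38.p6) and hold the 250 bases before the annotated start, read 5′ to 3′ on the gene's own strand. In the Ugt1a1 window (chr1:88211709-88211958, plus strand) and the Ugt1a6a window (chr1:88134559-88134808, plus strand), capitals mark ATTAAC, a part of the motif bound by the hepatocyte factor HNF1. In the Gstp1 window (chr19:4037913-4038162, minus strand) and the Gstp2 window (chr19:4042222-4042471, minus strand), capitals mark TGAGTCA, the reverse complement of the AP-1 motif TGACTCA. In the Gstp1 window they also mark GCGTG, the core of the motif bound by AhR.
Ugt1a1: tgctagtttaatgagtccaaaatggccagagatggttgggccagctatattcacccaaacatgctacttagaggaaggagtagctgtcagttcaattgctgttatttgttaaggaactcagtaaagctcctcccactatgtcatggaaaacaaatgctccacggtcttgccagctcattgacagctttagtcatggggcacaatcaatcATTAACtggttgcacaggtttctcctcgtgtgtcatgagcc
Ugt1a6a: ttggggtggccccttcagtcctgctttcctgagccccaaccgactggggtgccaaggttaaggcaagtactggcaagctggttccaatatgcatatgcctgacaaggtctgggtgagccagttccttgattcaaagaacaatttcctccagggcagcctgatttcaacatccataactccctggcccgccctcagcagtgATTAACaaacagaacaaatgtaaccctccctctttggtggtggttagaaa
Gstp1: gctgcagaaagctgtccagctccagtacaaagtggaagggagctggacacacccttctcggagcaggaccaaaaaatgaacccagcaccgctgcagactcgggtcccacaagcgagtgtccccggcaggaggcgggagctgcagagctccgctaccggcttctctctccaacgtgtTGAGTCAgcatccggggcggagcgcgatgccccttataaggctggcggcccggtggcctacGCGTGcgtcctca
Gstp2: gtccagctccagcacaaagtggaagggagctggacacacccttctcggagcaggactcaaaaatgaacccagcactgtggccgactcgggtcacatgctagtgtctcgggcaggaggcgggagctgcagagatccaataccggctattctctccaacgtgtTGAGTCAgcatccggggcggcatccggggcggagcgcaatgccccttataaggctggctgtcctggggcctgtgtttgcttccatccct

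The ATTAAC in these windows begins at base -41 of Ugt1a1 and at base -50 of Ugt1a6a, counted from the start. The AP-1 motif begins at base -74 of Gstp1 and at base -89 of Gstp2. The Gstp1 and Gstp2 windows are 78.5% identical, those of Ugt1a1 and Ugt1a6a 51.5%. Of the 46 genes, 41 had windows in the RefSeq table, 51 windows in all, which were searched on both strands. ATTAAC was in 8 of the 51 windows and in 6.43% of all 32851 windows of the table. TGACTCA was in 4 of the 51 and in 4.46% of all, GCGTG in 10 and in 28.2%, and AGGTCA, read by CAR and other nuclear receptors, in 11 and in 14.0%. TGACNNNGC, the core of the antioxidant response element read by Nrf2, was in 4 of the 51 and in 10.2% of all. TTATGTAA, read by the clock output factors Dbp, Tef and Hlf, was in 1 of the 51, upstream of Ugt2b1, and in 0.819% of all. These are matches of letters, not shown binding.

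Conjugation genes as a whole were at nearly the same level in both groups. Together the 46 genes held 1.17% of all counts in KO livers and 1.15% in WT livers, and summed to 11665 ± 987 CPM in KO and 11491 ± 991 CPM in WT (n = 6 each, ± SD). The UGT genes summed to 3245 ± 361 CPM in KO and 3216 ± 433 CPM in WT. The GST and MGST genes summed to 7057 ± 459 CPM in KO and 6720 ± 549 CPM in WT. The SULT genes summed to 1363 ± 271 CPM in KO and 1556 ± 149 CPM in WT. In all 3 classes the group means lay within the spread of the libraries, and the groups overlapped.

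Of the 46 genes, 2 passed the test across all genes (edgeR's quasi-likelihood test with Benjamini-Hochberg adjustment, threshold 0.05), and both, Ugt1a6a and Ugt1a1, were lower in KO. Across all 15000 genes tested, 396 passed, which is 2.64%, and 224 of these, 1.49%, were lower in KO. The members' share of 4.35% rests on 2 genes and is not far from that background. None of the 22 GST and MGST genes and none of the 8 SULT genes passed. DESeq2, run as an alternative, called 8 of the 46, including 5 GST genes and 1 SULT gene, against 1210 of all 15000 genes. Limma-voom called 2 of the 46, with 1 GST gene, Gstt2, against 394 of all 15000 genes. At an unadjusted p under 0.05 stood 12 of the 46 genes, 6 higher and 6 lower in KO (26.1%, against 21.2% of all genes), among them 8 GST genes and 2 SULT genes. None of the 46 had groups that did not overlap, against 2.53% of all genes. Log2 fold changes are given ± SE. The log2 fold change was above 0 for 16 genes and below 0 for 30, with a median of -0.04, against 0.0031 over all genes. The median was -0.09 for UGT, -0.02 for GST and MGST and -0.18 for SULT genes.

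**Figure D1:**
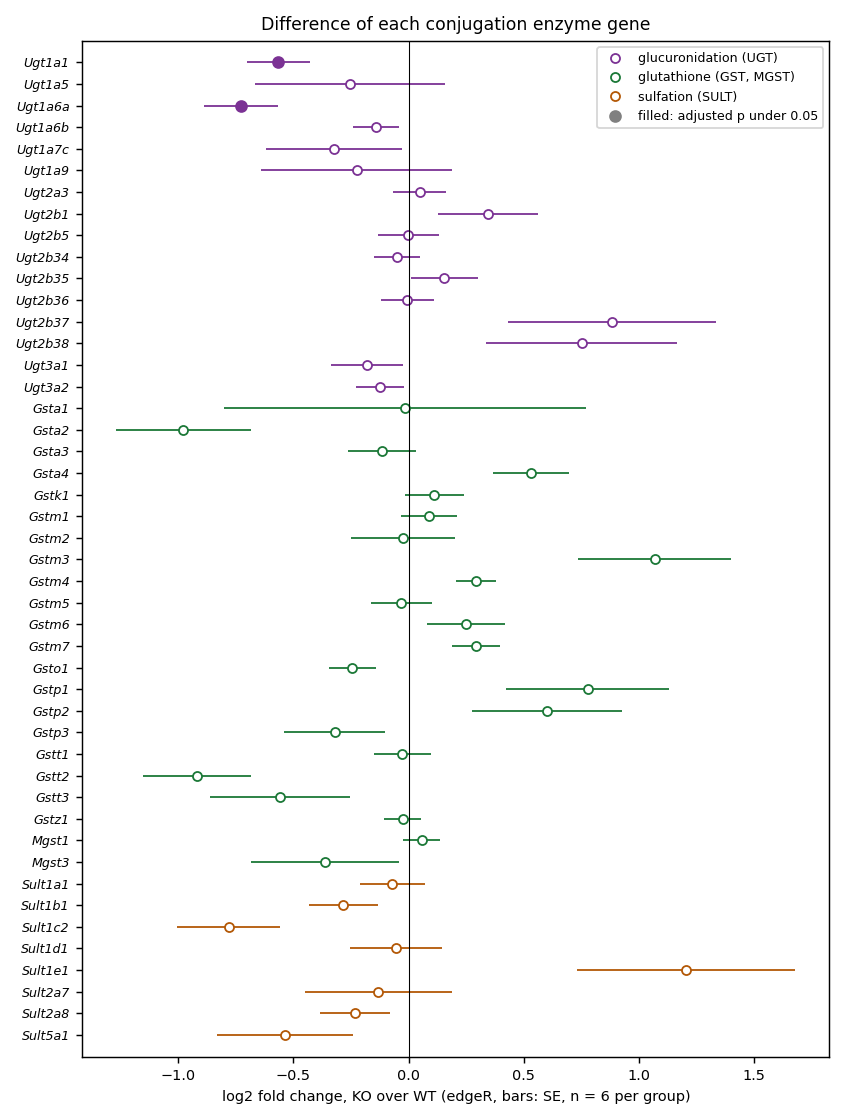
Log2 fold change of each of the 46 conjugation genes, KO over WT, with its SE as bars (n = 6 each), coloured by enzyme class; filled points have an adjusted p under 0.05. The filled points are Ugt1a6a at -0.73 and Ugt1a1 at -0.56; the widest bar is that of Gsta1, which has few counts.

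Ugt1a6a conjugates small planar phenols, paracetamol among them. Its own span is chr1:88134809-88218997 on the plus strand. Its levels in KO libraries 1 to 6 were 8.27, 11.2, 14.3, 11.8, 18.7 and 10.1 CPM, and in WT libraries 1 to 6 they were 19.3, 21.2, 24.5, 19.9, 18.4 and 19.8 CPM. The WT libraries were close together, and 5 of 6 KO libraries lay below all of them. KO library 5 alone reached into the WT range. The mean was 12.4 ± 3.66 CPM in KO and 20.5 ± 2.16 CPM in WT, and the gene fell by 0.73 ± 0.16 (log2, SE; edgeR adjusted p = 0.0350).

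Ugt1a1 is the enzyme that conjugates bilirubin, and its loss causes jaundice in humans and mice. Its span is chr1:88211959-88218997 on the plus strand. In KO libraries 1 to 6 it stood at 48.5, 57.7, 51.1, 58.0, 47.5 and 41.1 CPM, and in WT libraries 1 to 6 at 86.7, 93.6, 62.8, 80.7, 74.9 and 50.7 CPM. KO libraries 1, 5 and 6 lay below all WT libraries, and WT library 6 was inside the KO range. Ugt1a1 fell by 0.56 ± 0.14 (log2, SE; edgeR adjusted p = 0.0437), and averaged 50.6 ± 6.48 CPM in KO livers and 74.9 ± 15.8 CPM in WT livers. That is 1.48-fold lower in KO for Ugt1a1 and 1.65-fold lower for Ugt1a6a.

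Both calls were close to the threshold and were lost without some single libraries. With a library left out, the log2 fold change stayed between -0.89 and -0.63 for Ugt1a6a and between -0.65 and -0.49 for Ugt1a1. The adjusted p of Ugt1a6a was 0.0104 to 0.0796 when each library was left out in turn, and was above 0.05 without any of KO libraries 2, 4 and 6 and WT libraries 2, 3, 4 and 5. The adjusted p of Ugt1a1 was 0.0112 to 0.110, and stayed under 0.05 only without KO library 4 or WT library 3 or 6. Without WT libraries 2 and 4 together, Ugt1a6a had a log2 fold change of -0.73 with adjusted p = 0.191 and Ugt1a1 one of -0.44 with adjusted p = 0.257. That setting was chosen after seeing the data, and 7 genes in all passed it. In the authors' deposited table Ugt1a6a had an adjusted p of 0.0310 and Ugt1a1 one of 0.0560.

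The other Ugt1a genes all had log2 fold changes below 0 in the 12 libraries, and none passed the test. Ugt1a6b, the close copy of Ugt1a6a, was at 28.6, 35.1 and 40.4 CPM in KO libraries (lowest, median, highest) and at 30.2, 39.9 and 43.5 CPM in WT libraries. Its log2 fold change was -0.14 ± 0.10 (adjusted p = 0.448), and the groups overlapped almost fully. Ugt1a5 had medians of 13.5 CPM in KO livers and 18.1 CPM in WT livers, and Ugt1a9 of 7.51 CPM in KO livers and 8.57 CPM in WT livers, each with a wide spread. Their log2 fold changes were -0.25 and -0.23 in all 12 libraries, and 0.11 and 0.38 without WT libraries 2 and 4, so their direction rests on those libraries. Ratios between copies, chosen after the values were seen, set the called genes against Ugt1a6b. Ugt1a6a stood at 0.359 ± 0.123 of Ugt1a6b in KO and 0.534 ± 0.0775 in WT, and Ugt1a1 at 1.46 ± 0.298 of it in KO and 1.92 ± 0.287 in WT (n = 6 each, ± SD). Both differences had p = 0.0260 (two-sided exact permutation test, adjusted over 3 ratios), and in both 4 of 6 KO libraries were lower than every WT library. The Ugt1a1 ratio had an unadjusted p of up to 0.0541 when a library was left out. Since the genes were picked for their own difference, these ratios are no independent evidence of it.

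**Figure D2:**
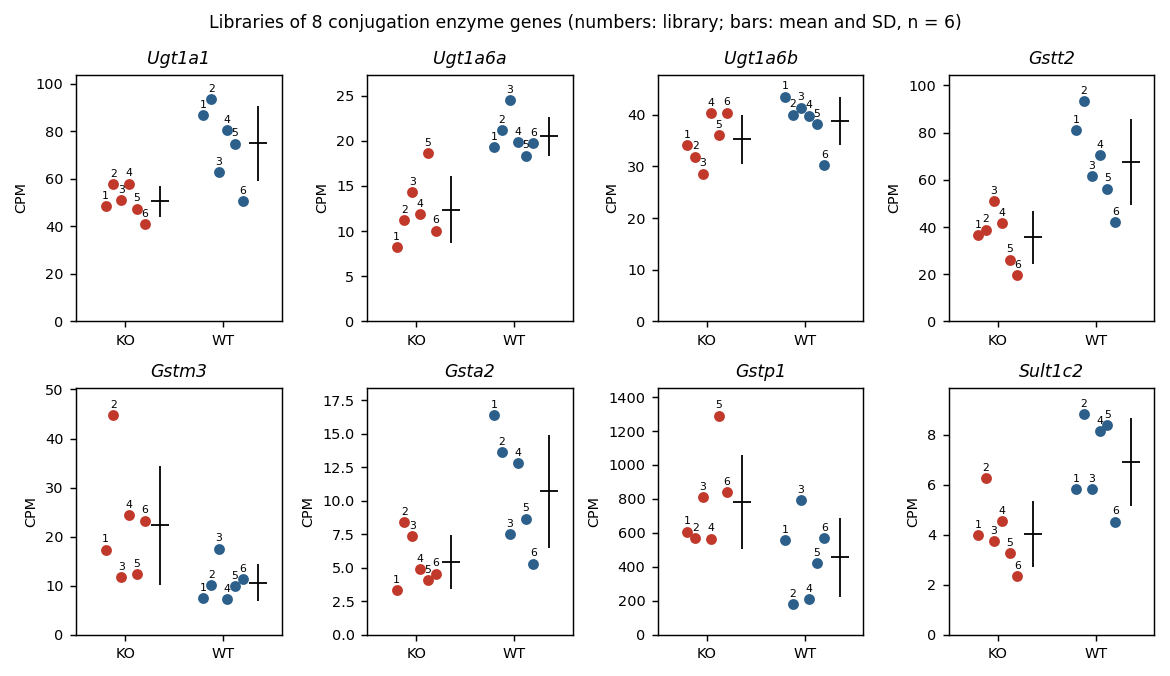
Level in CPM of 8 conjugation genes in each library, KO on the left and WT on the right, with the library number over each point and the mean and SD beside it (n = 6 each). Ugt1a6a in KO lies at or below 14.3 CPM except for library 5, Gstt2 in KO lies below all WT libraries except for library 3, and Ugt1a6b overlaps between the groups.

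The Ugt2 and Ugt3 genes held most UGT counts of these livers, and edgeR called none of the 10. Ugt2b enzymes conjugate steroids, bile acids and many drugs. Per kilobase of exon, Ugt2b5 had a level of 319 ± 32.6 in KO and 319 ± 73.6 in WT, and Ugt2b36 of 291 ± 41.5 in KO and 292 ± 42.8 in WT (CPM per kb, n = 6 each, ± SD). These are the highest of the UGT genes that could be given per length, and their log2 fold changes were -0.00 ± 0.13 and -0.01 ± 0.12. Ugt2a3 averaged 260 ± 42.6 CPM in KO and 252 ± 31.4 CPM in WT. Ugt3a2, of a family whose human members use sugars other than glucuronic acid, averaged 381 ± 49.9 CPM in KO and 415 ± 51.2 CPM in WT, and Ugt3a1 averaged 85.1 ± 16.4 CPM in KO and 96.4 ± 20.6 CPM in WT. Ugt2b1, Ugt2b37 and Ugt2b38 had positive log2 fold changes of 0.34, 0.88 and 0.75, with adjusted p from 0.282 to 0.384. Those values were 0.15, 0.59 and 0.45 without WT libraries 2 and 4.

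Those 3 genes and Ugt2b35 were the Ugt2b genes in which WT libraries 2 and 4 were the lowest of the WT group. Ugt2b38 stood at 34.1 CPM in KO library 1 and at 8.94 to 12.2 CPM in the other KO libraries. It stood at 4.86 and 4.29 CPM in WT libraries 2 and 4, and at 5.31 to 12.9 CPM in the other WT libraries. Without KO library 1 its log2 fold change was 0.29. Of Ugt2b38's 75-base stretches 28.0% recur in other genes, Ugt2b5 and Ugt2b37 among them, so its reads are uncertain.

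The GST gene with the smallest adjusted p was of the theta class. Gstt2 (chr10:75831114-75837424, minus strand) acts on sulfate esters and shares no 75-base stretch with another gene. Its levels in KO libraries 1 to 6 were 36.7, 38.9, 51.0, 41.7, 26.2 and 19.8 CPM, and in WT libraries 1 to 6 they were 81.0, 93.2, 61.6, 70.4, 56.3 and 42.2 CPM. Only KO library 3 reached above the lowest WT library, which was WT library 6. The log2 fold change was -0.92 ± 0.23 (edgeR adjusted p = 0.0567), which misses the threshold. Without KO library 3 the adjusted p was 0.0399, and without WT library 6 it was 0.0280. It stayed above 0.05 in 10 of 12 cases with a library left out, and reached 0.126 without WT library 4. Without WT libraries 2 and 4 together, the log2 fold change was -0.76 (adjusted p = 0.283).

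Gstt1, its neighbour in the same cluster, was not called. It had 218, 252 and 311 CPM in KO libraries and 190, 265 and 312 CPM in WT libraries (lowest, median, highest), with a log2 fold change of -0.03 ± 0.12. The ratio of Gstt2 to Gstt1 was 0.137 ± 0.0334 in KO and 0.256 ± 0.0501 in WT (n = 6 each, ± SD), and all 6 KO libraries were lower than every WT library. A two-sided exact permutation test gave p = 0.00216, the smallest it can give, and 0.00649 adjusted over the 3 ratios. As with the Ugt1a ratios, Gstt2 was picked for its own difference. Gstt3 had medians of 32.0 CPM in KO livers and 42.1 CPM in WT livers (log2 fold change -0.56, adjusted p = 0.316, and -0.15 without WT libraries 2 and 4).

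Alpha-class GSTs, which reduce lipid peroxides and conjugate lipid aldehydes, had no gene of 4 that passed edgeR's test, and 1 of the 4 had a log2 fold change above 0. Gsta3, the most abundant of them and known in mice to detoxify aflatoxin epoxide, averaged 1358 ± 173 CPM in KO and 1471 ± 323 CPM in WT (log2 fold change -0.11 ± 0.15). Gsta2 was at 3.31, 4.74 and 8.42 CPM in KO libraries and at 5.31, 10.7 and 16.4 CPM in WT libraries (lowest, median, highest). Its log2 fold change was -0.98 ± 0.29 (adjusted p = 0.0875), and 4 of 6 KO libraries were lower than every WT library. Without WT libraries 2 and 4, the log2 fold change of Gsta2 was -0.80 (adjusted p = 0.358). Of its 75-base stretches 36.6% recur in other genes, Gsta1 among them, so its reads are uncertain. Gsta4, the enzyme for hydroxynonenal, was at 34.5, 47.7 and 58.4 CPM in KO libraries and at 21.7, 32.6 and 41.6 CPM in WT libraries. It had a log2 fold change of 0.53 ± 0.17 (adjusted p = 0.0984), with 4 of 6 KO libraries above all WT libraries. Gsta1 stood near 1 CPM in both groups, and 84.7% of its 75-base stretches recur in other genes.

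Mu-class GSTs conjugate epoxides and quinones, and lie in a cluster on chromosome 3. Of the 7 genes 5 had log2 fold changes above 0, and none passed the test. Gstm1, the most abundant, averaged 757 ± 124 CPM in KO and 711 ± 101 CPM in WT. Gstm4 was at 35.2, 43.4 and 48.1 CPM in KO libraries and at 31.4, 35.2 and 40.3 CPM in WT libraries (lowest, median, highest). With 5 of 6 KO libraries above all WT libraries, its log2 fold change was 0.29 ± 0.09 (adjusted p = 0.0861). Gstm3 had a log2 fold change of 1.07 ± 0.33 (adjusted p = 0.102). Its levels ran from 11.8 to 44.7 CPM in KO and from 7.33 to 17.6 CPM in WT, and KO library 2 held the highest level. Gstm6 and Gstm7 had log2 fold changes of 0.25 and 0.29.

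Gstp1, of the pi class, had the widest within-group spread on the log2 scale of all conjugation genes above 100 CPM. It conjugates electrophiles and is known as a male-biased gene of mouse liver. It was at 608, 567, 810, 567, 1291 and 841 CPM in KO libraries 1 to 6. In WT libraries 1 to 6 it was at 559, 182, 792, 211, 421 and 571 CPM. The lowest levels of all 12 were those of WT libraries 2 and 4, the libraries low in male-biased genes, and KO library 5 held the highest. Gstp1 had a log2 fold change of 0.78 ± 0.35 (adjusted p = 0.233), and 3 of 6 KO libraries were higher than every WT library. Its log2 fold change was 0.41 without WT libraries 2 and 4 (adjusted p = 0.509). Gstp2, at 8.87 ± 3.90 CPM in KO and 5.85 ± 2.63 CPM in WT, had its lowest values in WT libraries 2 and 4 (2.81 and 3.12 CPM) and its highest in KO library 5 (16.6 CPM). Its log2 fold change was 0.60 (adjusted p = 0.310), 0.28 without WT libraries 2 and 4, and 0.32 without KO library 5. Of its 75-base stretches 50.1% recur in other genes, Gstp1 among them, and how shared reads were counted is not given. Gstp3 averaged 12.5 ± 2.52 CPM in KO and 15.7 ± 5.07 CPM in WT.

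**Figure D3:**
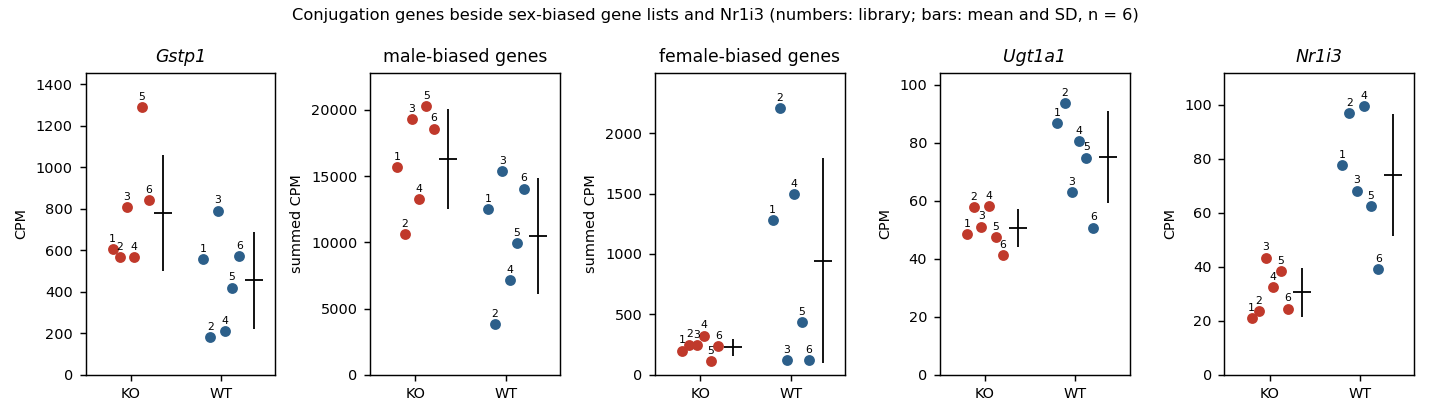
Level by library of Gstp1, of the summed male-biased and female-biased liver genes, of Ugt1a1 and of Nr1i3, in CPM, KO left and WT right, with mean and SD (n = 6 each). WT libraries 2 and 4 are lowest for Gstp1 and for male-biased genes, and the highest 2 WT libraries for female-biased genes and Nr1i3.

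The other GST classes and the membrane enzymes did not pass the test either. Mgst1, which conjugates and reduces lipid peroxides in membranes, had the highest level per length of the 40 genes compared, 1298 ± 97.3 in KO and 1248 ± 111 in WT (CPM per kb, n = 6 each, ± SD). Its log2 fold change was 0.06 ± 0.08. Gstz1, the isomerase of tyrosine breakdown, averaged 722 ± 77.5 CPM in KO and 735 ± 38.5 CPM in WT. Gstk1, an enzyme of mitochondria and peroxisomes, averaged 138 ± 24.0 CPM in KO and 127 ± 20.6 CPM in WT. Gsto1, which reduces dehydroascorbate and mixed disulfides, averaged 66.8 ± 7.12 CPM in KO and 79.1 ± 11.8 CPM in WT (log2 fold change -0.24 ± 0.10, adjusted p = 0.188). Mgst3 was at 7.77 CPM in KO and 11.4 CPM in WT (medians).

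**Figure D4:**
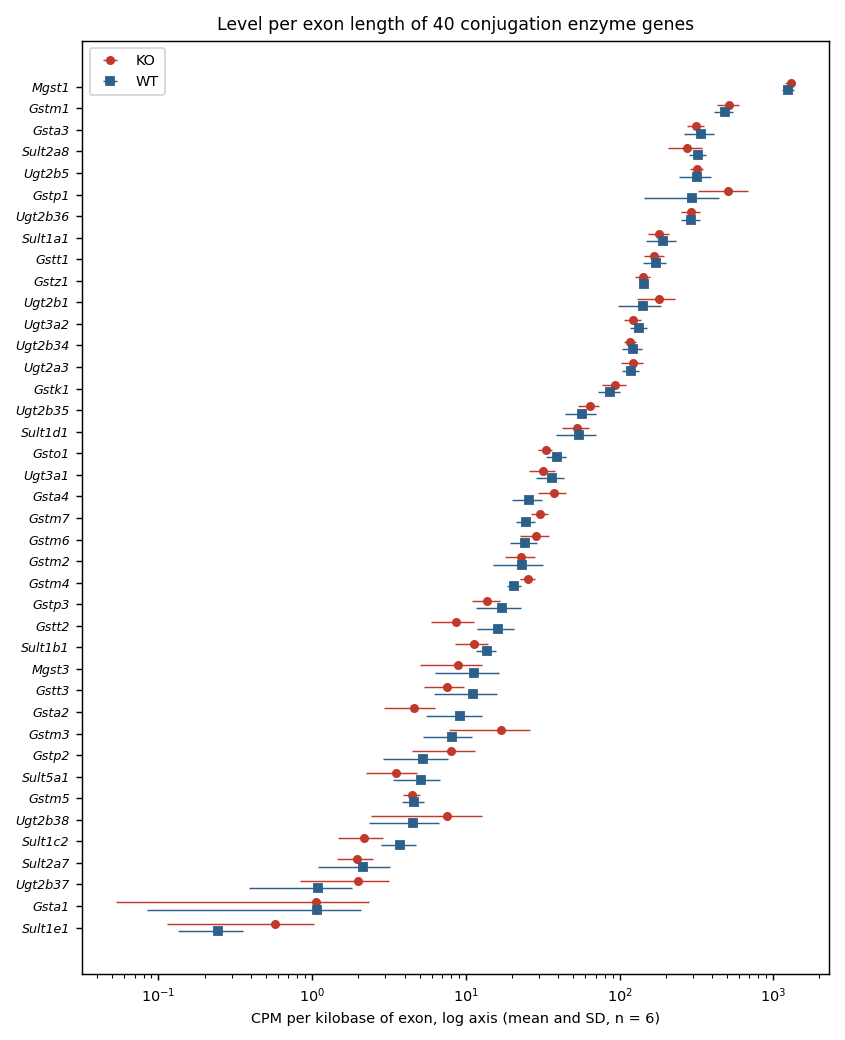
Level per kilobase of exon, on a log axis, of the 40 genes outside the Ugt1a locus, as mean and SD per group (n = 6 each), KO above WT; the lower bar of Gsta1 in KO, where the SD exceeds the mean, is cut short. Levels run from below 1 CPM per kb for Sult1e1 to 1298 CPM per kb in KO and 1248 CPM per kb in WT for Mgst1, and the groups lie close together for the abundant genes except Gstp1.

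Of the 8 SULT genes 7 had log2 fold changes below 0, and none passed the test. Sult2a8, which sulfonates bile acids in mouse liver, is the most abundant of them. It was at 635, 864 and 1179 CPM in KO libraries and at 899, 1046 and 1218 CPM in WT libraries (lowest, median, highest), and 3 of 6 KO libraries were lower than every WT library. The log2 fold change was -0.23 ± 0.15 (adjusted p = 0.402). Sult1a1, the phenol sulfotransferase, averaged 274 ± 42.3 CPM in KO and 287 ± 62.1 CPM in WT. Sult1d1, which acts on catecholamines in mice, averaged 129 ± 26.2 CPM in KO and 134 ± 39.1 CPM in WT.

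Sult1c2 had the smallest adjusted p of the SULT genes. Its levels in KO libraries 1 to 6 were 3.98, 6.26, 3.75, 4.55, 3.26 and 2.36 CPM, and in WT libraries 1 to 6 they were 5.82, 8.82, 5.82, 8.16, 8.40 and 4.53 CPM. KO libraries 1, 3, 5 and 6 lay below all WT libraries. The log2 fold change was -0.78 ± 0.22 (adjusted p = 0.0765), and the adjusted p was 0.0436 without KO library 2 and 0.0416 without WT library 6. It stayed above 0.05 in 10 of 12 cases with a library left out, and reached 0.167 without WT library 4. Without WT libraries 2 and 4 together, the log2 fold change was -0.61 (adjusted p = 0.354). Sult1e1, the oestrogen sulfotransferase, was hardly present, at 0.708 ± 0.567 CPM in KO and 0.305 ± 0.137 CPM in WT (log2 fold change 1.20 ± 0.47, adjusted p = 0.167). KO library 5 held the highest level, 1.81 CPM, and without it the log2 fold change was 0.65. Sult5a1 and Sult2a7 had log2 fold changes of -0.53 and -0.13, with adjusted p of 0.320 and 0.850.

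How firmly a difference can be called depended on the spread within groups. The within-group SD of log2 levels had a median of 0.315 over the 46 genes, against 0.241 over all genes tested and 0.229 over genes in the same range of levels. WT libraries 2 and 4 were the pair with the lowest levels of the WT group for 6 of the 46 genes (13.0%, against 8.25% of all genes) and the pair with the highest for 11 (23.9%, against 7.59%). The lowest pair covered Ugt2b1, Ugt2b35, Ugt2b37, Ugt2b38, Gstp1 and Gstp2. The highest pair covered Ugt1a5, Ugt1a9, Gsta3, Gstk1, Gstm2, Gstt1, Gstt3, Gstz1, Mgst3, Sult1a1 and Sult1d1. The labels give no batch or preparation day, and the part of sex-biased expression in these differences was not tested.

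**Figure D5:**
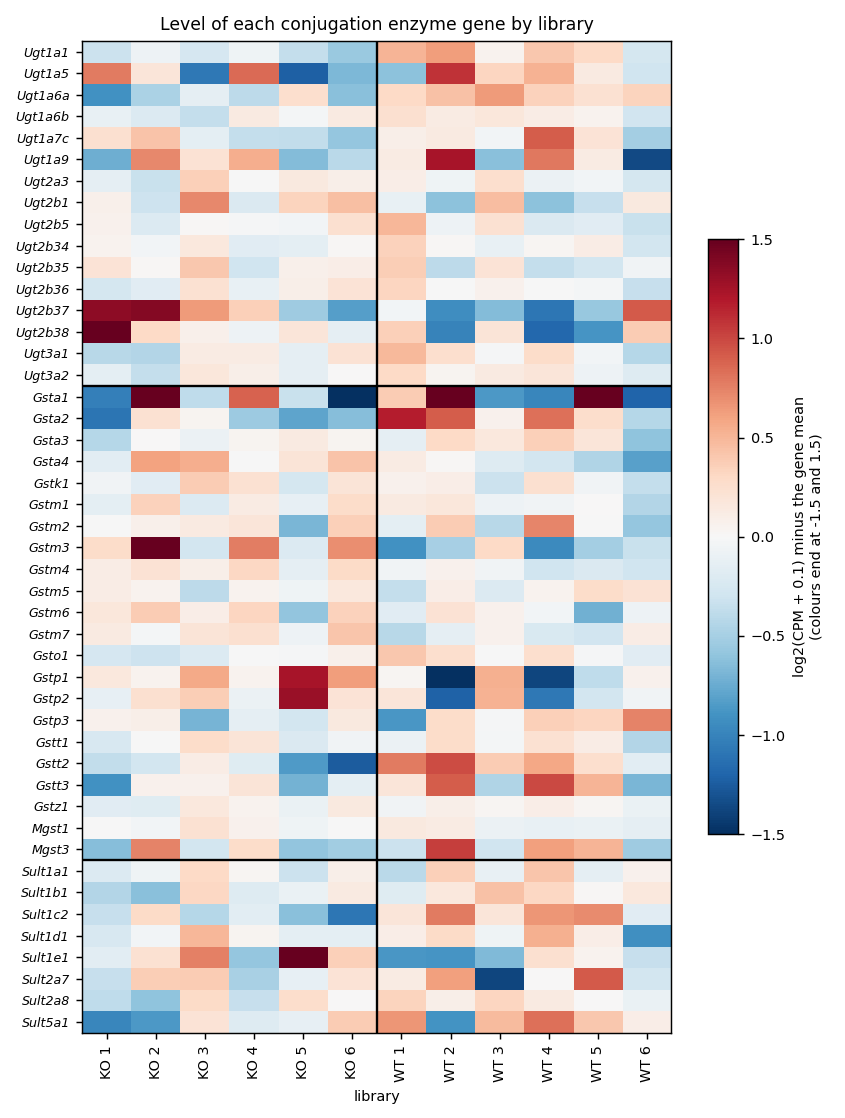
Level of each conjugation gene in each library as log2(CPM + 0.1) minus the gene's mean over the 12 libraries, with KO libraries on the left and WT libraries on the right. Ugt1a1, Ugt1a6a and Gstt2 are mostly blue in KO and red in WT, while Gstp1 and Gstp2 are darkest blue in WT libraries 2 and 4.

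The supply of the conjugated groups was examined with lists of pathway genes, which were chosen with earlier results of these data known. Of 12 genes for UDP-glucuronate supply and glucuronide turnover, none passed edgeR's test, 2 had an unadjusted p under 0.05, and their median log2 fold change was 0.02. DESeq2 called 1 of them and limma-voom none. Over all 15000 genes, 2.64% passed edgeR's test and 21.2% had an unadjusted p under 0.05, while DESeq2 called 1210 and limma-voom 394. Abhd10, which removes glucuronic acid from acyl glucuronides, averaged 6.09 ± 0.409 CPM in KO and 4.70 ± 0.796 CPM in WT (log2 fold change 0.38, adjusted p = 0.0970). Slc35b1, a nucleotide carrier of the endoplasmic reticulum, averaged 58.0 CPM in KO (range 47.2 to 71.9) and 42.7 CPM in WT (range 32.0 to 61.1) (log2 fold change 0.44, adjusted p = 0.161).

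Of 27 tested genes of glutathione synthesis, recycling and breakdown 1 rose and none fell, with a median of 0.09, where 2.64% of all genes passed. An unadjusted p under 0.05 was found for 4, and DESeq2 called 3 and limma-voom 1. The gene that rose was Cbs, cystathionine beta-synthase, the enzyme that commits homocysteine to cysteine synthesis. It averaged 577 ± 110 CPM in KO and 364 ± 92.3 CPM in WT (log2 fold change 0.66 ± 0.16, adjusted p = 0.0471), and 4 of 6 KO libraries were higher than every WT library. The call held only without WT library 3 or 6 when a library was left out (adjusted p 0.0285 to 0.122), and without WT libraries 2 and 4 the log2 fold change was 0.52 (adjusted p = 0.270). Lap3, an aminopeptidase, averaged 339 ± 22.6 CPM in KO and 281 ± 33.4 CPM in WT (log2 fold change 0.27, adjusted p = 0.0912).

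Of 17 tested genes of sulfate donor synthesis, sulfur oxidation and sulfatases 1 rose and none fell, with a median of -0.02. An unadjusted p under 0.05 was found for 6, and DESeq2 called 3 and limma-voom 1. It was Ethe1, the mitochondrial enzyme that oxidises persulfides, at 49.6 ± 5.31 CPM in KO and 37.5 ± 4.71 CPM in WT. All 6 KO libraries were higher than every WT library (log2 fold change 0.40 ± 0.09, adjusted p = 0.0387), and the adjusted p reached 0.0967 without WT library 4. Leaving out a library took the call in 8 of 12 cases, and without WT libraries 2 and 4 the log2 fold change was 0.33 (adjusted p = 0.226). Csad, an enzyme on the path from cysteine to taurine, averaged 273 ± 132 CPM in KO and 113 ± 26.8 CPM in WT (log2 fold change 1.27, adjusted p = 0.0567).

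Other conjugation enzymes, which transfer acyl, acetyl or methyl groups, had no gene of 25 that passed edgeR's test, with a median of -0.07. An unadjusted p under 0.05 was found for 4, and DESeq2 called 2 and limma-voom none. Inmt, an N-methyltransferase of indole amines, averaged 213 ± 51.3 CPM in KO and 356 ± 118 CPM in WT (log2 fold change -0.74, adjusted p = 0.0898). Nat8f2, of an N-acetyltransferase family, averaged 1176 ± 226 CPM in KO and 1520 ± 113 CPM in WT (log2 fold change -0.37, adjusted p = 0.102).

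Of 24 tested receptors and factors known to regulate conjugation genes 1 fell and none rose, with a median of -0.12. An unadjusted p under 0.05 was found for 11 of the 24, against 21.2% of all genes, and DESeq2 called 7 and limma-voom 1. The gene that fell was Nr1i3, which encodes CAR, a receptor known to induce Ugt1a1. Its levels were 20.9, 28.5 and 43.3 CPM in KO libraries and 39.1, 72.9 and 99.5 CPM in WT libraries (lowest, median, highest), and 5 of 6 KO libraries were lower than every WT library. The log2 fold change was -1.28 ± 0.24 (adjusted p = 0.0246), and the adjusted p was 0.00830 to 0.0591 when each library was left out, above 0.05 if that was KO 6, WT 2 or WT 4. Nr1i3 overlaps Tomm40l on the opposite strand, and the strand setting of the counting is not given, so its reads are uncertain. Without WT libraries 2 and 4 together, its log2 fold change was -1.02 (adjusted p = 0.151). Nr1h4, the bile acid receptor FXR, averaged 123.4 ± 22.0 CPM in KO and 163 ± 9.65 CPM in WT (log2 fold change -0.40, adjusted p = 0.0558).

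Gene groups outside conjugation moved beside these values, and their part in them was not tested. Their lists were chosen with earlier results of these data known. Their counts beside those of all genes are thus a description, not independent evidence of a shift. Of 17 clock genes Cry1 rose (log2 fold change 0.96, adjusted p = 0.0360) and Hlf and Tef fell (-0.80 and -0.93, adjusted p = 0.0266 and 0.0326). Of the 17, 13 had an unadjusted p under 0.05, and DESeq2 called 12 and limma-voom 5. For this and the next lists, 21.2% of all 15000 genes had such a p, and DESeq2 called 1210 and limma-voom 394. The summed level was 519 to 748 CPM in KO libraries and 770 to 1161 CPM in WT libraries, with no overlap. Hlf and Tef encode PAR bZIP factors that drive daily output genes in liver. Of 16 macrophage markers 3 fell, Adgre1, Cd5l and Vsig4 (adjusted p = 0.0266, 0.0194 and 0.0368). Of the 16, 12 had an unadjusted p under 0.05, and DESeq2 called 12 and limma-voom 4. The summed level was 221 to 428 CPM in KO and 371 to 587 CPM in WT. In whole liver, fewer cells of a type and less RNA per cell cannot be told apart. Of 17 male-biased genes Elovl3 rose (adjusted p = 0.0176), and of 11 tested female-biased genes Acot3 fell (adjusted p = 0.0273). The log2 fold change was above 0 for 16 of the 17 male-biased genes (list median 0.68). It was below 0 for 9 of the 11 female-biased genes (list median -0.69). An unadjusted p under 0.05 was found for 5 genes of either list, and DESeq2 called 3 male-biased and 4 female-biased genes. Of 14 pericentral hepatocyte markers Cyp2a5 fell (adjusted p = 0.0307, list median -0.21), and of 14 periportal markers Sdsl rose (adjusted p = 0.0425, list median 0.19). Of 11 tested lymphocyte markers Lck fell (adjusted p = 0.0394). Leaving out a library took the call of Sdsl in 10 of 12 cases, of Cry1 in 9, of Lck in 8, of Tef and Vsig4 in 7, of Acot3 and Cyp2a5 in 6, of Hlf and Adgre1 in 4, of Cd5l in 2 and of Elovl3 in 0. Without WT libraries 2 and 4 together the adjusted p of these 11 genes was 0.0697 (Elovl3) to 0.257 (Sdsl), and the log2 fold change of Acot3 was -2.62, against -4.00 in all 12 libraries. No tested marker of cholangiocytes (10), sinusoidal endothelium (12), stellate cells (13), neutrophils (7), adipocytes (6), skeletal muscle (8) or erythroid cells (6) passed edgeR's test. Of these, 6 muscle, 3 neutrophil, 2 adipocyte, 2 endothelial and 1 stellate marker had an unadjusted p under 0.05. DESeq2 called 4 muscle markers and 1 stellate marker, and limma-voom none. The summed level of muscle markers was 5.01 to 14.7 CPM in KO and 5.92 to 40.9 CPM in WT, and that of adipocyte markers 32.1 to 139.5 CPM in KO and 39.2 to 73.1 CPM in WT.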

How the data were processed

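Liver polyA RNA was measured in 12 libraries, 6 KO and 6 WT, grouped by their titles. Read counts were deposited as whole numbers for each gene and library, without normalization. Per the file headers, which follow DESeq2's column names, the authors' own comparison stands beside them: the log2 fold change of each gene with its test score, its mean normalized signal, and p-values before and after adjustment. The submitters' processing notes name FastQC, Trimmomatic, HISAT2, SAMtools, featureCounts, DESeq2 and the build GRCm38, without versions. The sources used here do not give the annotation release, the strand setting or the treatment of shared reads.

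Of 15344 rows, 204 repeats of a gene were left out. Counts were fitted with edgeR 4.0.16 (R 4.3.3; robust quasi-likelihood F test, two-sided, TMM scaling), after filterByExpr removed 140 genes and none of the 46. The Benjamini-Hochberg adjustment ran over all 15000 genes, with a threshold of 0.05. Each SE is the absolute unshrunk log2 fold change divided by the square root of F. CPM use TMM-scaled library sizes, and levels per kilobase use GENCODE M21 exon length. The fits were tested on data simulated with edgeR's own estimates of spread. A limit on false calls was set there for edgeR and limma-voom, not for DESeq2. No library looked like a copy of another: in the 30 pairs within groups, chi-square over its degrees of freedom was 38.0 to 241.6. At these depths the spread between libraries, not counting error, sets the precision for most members.

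The members and lists were chosen with earlier results of these data known. The text names every member that passed the test, the 2 most abundant members and the one with the smallest p in each subfamily, called genes of each list and the 2 with the smallest p of each pathway list. Other members, and the libraries named apart, were picked with their values in view. Alternatives were RLE and total-count scaling, no filter, a minimum of 1 CPM in 6 libraries, DESeq2 1.42.0, limma-voom (limma 3.58.1), no robust estimation, a replicate block and each library left out. An alternative without WT libraries 2 and 4, and the 3 ratios, were added after seeing the data.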

Additional observations from a re-analysis of the deposited data

Results flagged for a closer look

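In 6 of 92 groups of 6 libraries (46 genes, KO and WT each), 1 library lay far from the others. The measure was Dixon's ratio, taken on log2 CPM, while the levels below are plain CPM. The ratio divides that library's distance from its closest neighbour by the whole range of the group. It was set against its 95% critical value. Chance flags about 1 in 20 groups, here 4.6. KO library 5 was such a library for 3 genes. Gstm6 was at 34.0 CPM there and at 54.8 CPM or more in the other KO libraries (ratio 0.707), and Gstm2 was at 23.2 CPM, with 37.3 CPM next (ratio 0.655). Gstp2 was at 16.6 CPM in KO library 5 and at 8.67 CPM or less in the other KO libraries (ratio 0.649). Ugt2b38 was at 34.1 CPM in KO library 1, with 12.2 CPM next (ratio 0.770). Sult1d1 was at 180 CPM in KO library 3, with 131 CPM next (ratio 0.627). Ugt1a6b was at 30.2 CPM in WT library 6, with 38.1 CPM next (ratio 0.641). None of the 6 genes passed the test between groups.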

How the results depend on the processing

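Counts of called genes were lower with total counts only (257 of all genes, 1 of the 46, 1 UGT) and higher with DESeq2 (1210, 8 of the 46, with 5 GST and 1 SULT). The DESeq2 calls were Ugt1a6a, Ugt1a1, Gstt2, Gsta2 and Sult1c2, lower in KO, and Gstm3, Gsta4 and Gstm4, higher in KO. A minimum of 1 CPM, limma-voom and no robust estimation each called 1 GST gene, Gstt2, and limma-voom called 1 UGT gene. RLE scaling and no filter called 2 of the 46. Without WT libraries 2 and 4 together, 7 genes were called, 0 of the 46 and 0 UGT. The cause was not tested. Leaving out each library gave 25 to 700 called genes, 0 to 5 of the 46, 0 to 2 UGT, 0 to 2 GST and 0 to 1 SULT genes. The count of 0 was reached without KO library 6 or WT library 2, 4 or 5, and that of 5 without WT library 6. With a replicate block, 4 of the 46 were called, with 1 GST and 1 SULT gene added, while Vsig4 (adjusted p = 0.0644), Lck (0.0697), Cyp2a5 (0.0864) and Sdsl (0.0885) of the other lists were not. Limma-voom lost Cry1 (0.0558) and Acot3 (0.130), and total counts lost Sdsl (0.0647). The main fit did not pair libraries by their numbers. By number, 4 of 6 pairs had a correlation of deviations over 0.1, and 3 of 6 KO libraries correlated best with their own number. Whether the numbers pair the libraries was not tested.

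Signs turned for the following genes, none of which passed the test (log2 fold changes). Gsta1 was 0.012 with total counts, Ugt2b5 0.024 with limma-voom and 0.022 with the replicate block, Sult2a7 0.0084 with limma-voom, and Gstm2 0.0095 with limma-voom and 0.011 with the replicate block. Without WT libraries 2 and 4, signs turned for 10 of the 46 genes: Ugt1a5 was 0.11, Ugt1a9 0.38, Gstm2 0.31, Gsta3 0.029, Gstt1 0.098, Gstz1 0.012, Mgst3 0.028, Sult1a1 0.12, Sult1d1 0.15 and Gsta1 0.20. With single libraries left out, the log2 fold change was -0.037 to 0.11 for Ugt2a3, -0.067 to 0.065 for Ugt2b36, -0.061 to 0.12 for Ugt2b5, -0.10 to 0.029 for Gstt1, -0.075 to 0.0074 for Gstz1, -0.16 to 0.012 for Sult1a1, -0.19 to 0.058 for Sult1d1, -0.32 to 0.090 for Sult2a7 and -0.92 to 0.41 for Gsta1. It was -0.41 to 0.079 for Ugt1a9, -0.11 to 0.021 for Ugt2b34, -0.12 to 0.16 for Gstm2 and -0.10 to 0.023 for Gstm5. The GST and MGST median ran from -0.047 to 0.070.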

Other observations

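In the authors' deposited table, 4 of the 46 genes had an adjusted p under 0.05, all lower in KO: Ugt1a6a (0.0310), Gsta2 (0.0215), Gstt2 (0.0221) and Sult1c2 (0.00704). That is 8.70% of the 46 genes, against 5.51% of all genes in that table (834 genes).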
